A study of Homo sapiens with 6 samples.

Results

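The bone morphogenetic protein (BMP) pathway genes SMAD1, SMAD5, SMAD6, BMP4, BMPR1A, BMPR2, ID1, ID2, ID3 and MSX1 were described through every probe set whose single gene symbol in the platform annotation was one of these 10 genes. Of the 22283 probe sets on the array, 16 met this rule, and they covered 9 of the genes. No probe set carried BMPR1A as its single symbol in the annotation used, so this receptor was not analysed here. The arrays held total RNA of HT1080, a line established from a human fibrosarcoma, in 3 groups of 2 arrays. The first group carried the pGUS vector expressing GFP and an siRNA against MT1-MMP, the membrane-anchored collagenase encoded by MMP14. The second carried the same vector with GFP and an siRNA against integrin alpha3, a laminin receptor subunit encoded by ITGA3. The third, mock, carried pGUS expressing GFP only, so GFP and the vector backbone were shared by all groups. Nothing in the labels says whether arrays of 1 group stem from separate cultures. Each p-value sets a difference against the spread among these 6 arrays alone, an estimate shared in part over all tested probe sets. That spread may be technical. Precision is limited by having 2 arrays a group.

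BMPs are secreted ligands that bring type I and type II receptor kinases together on the cell surface. The active type I receptor phosphorylates SMAD1 and SMAD5, which join SMAD4, enter the nucleus and bind regulatory DNA. The ID genes are the best-known immediate targets: their proteins lack a DNA-binding region and hold basic helix-loop-helix transcription factors in inactive dimers. SMAD6 is an inhibitory SMAD that blocks the same branch, and MSX1 is a homeobox transcription factor induced by BMPs in developing tissues. In fibrosarcoma cells SMAD1 has been described as a gene that responds to MT1-MMP, which makes its level with the MT1-MMP siRNA the comparison of interest.

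The siRNA targets were read first. MMP14 had signals of 812 and 717 with MT1-MMP siRNA, 999 and 1804 in alpha3 siRNA cells, and 1971 and 3064 in mock cells. ITGA3 had signals of 1481 and 1634 with MT1-MMP siRNA, 148 and 347 in alpha3 siRNA cells, and 1139 and 1290 in mock cells. Each target was thus lowest in the group named for it, although neither passed the limma test against mock (MMP14 log2 fold change -1.65, adjusted p = 0.123, and ITGA3 log2 fold change -2.25, adjusted p = 0.164). Both alpha3 siRNA arrays also lay below both mock arrays for MMP14 (log2 fold change -0.86, limma adjusted p = 0.892). For MT1-MMP siRNA over alpha3 siRNA, ITGA3 passed (log2 fold change 2.60, limma adjusted p = 0.0244) and MMP14 did not (-0.79, adjusted p = 0.177). Each target was read by its brightest probe set. The 18 hybridisation controls stood, as the median ratio to their mock mean, at 2.30 and 1.29 on the MT1-MMP siRNA arrays, 0.812 and 0.841 on the alpha3 siRNA arrays, and 0.927 and 1.07 on the mock arrays. All 8 mesenchymal markers lay above the filter on low signals, with summed signals of 32265 to 39368 with MT1-MMP siRNA, 20461 to 24208 in alpha3 siRNA cells and 20371 to 24677 in mock cells. This sum was carried by VIM, FN1 and CD44, while S100A4 and THY1 had lower means with MT1-MMP siRNA (52 and 85.2) than in mock cells (69.5 and 108). Of 6 epithelial markers, 2 lay above the filter: KRT18, with signals of 1807 to 3220 over the 6 arrays, and KRT8, with 431 to 1457. The summed epithelial signal was 2273 to 2713 with MT1-MMP siRNA, 4182 to 4612 in alpha3 siRNA cells and 3006 to 3200 in mock cells. This epithelial sum was carried by KRT18 and KRT8. EPCAM, KRT19, CLDN4 and CDH1 had signals of at most 6.7, 5.5, 13.3 and 29.3.

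On their tested probe sets, the 3 ID genes had their 2 lowest arrays in the MT1-MMP siRNA group, MSX1 had its 2 lowest arrays in the alpha3 siRNA group, and SMAD1 passed the test in no comparison. ID3 was the one member that passed the test, with 372 and 262 in MT1-MMP siRNA cells against 818 and 834 in alpha3 siRNA cells. Against mock cells no member passed for either siRNA. The tests were made on log2(signal + 32) for the 11823 singly named probe sets whose mean lay above the 40th percentile, a signal of 47.6, with limma and Benjamini-Hochberg adjustment over all of them. A fold change on this scale understates changes of dim genes. Of the 16 probe sets, 8 lay above this filter and 8 below it, and only the first 8, which cover 7 genes, were tested. ID2 on 201565_s_at passed the filter through its alpha3 siRNA and mock signals, since its MT1-MMP siRNA mean of 46.1 lay under it. A second ID2 probe set, under the filter, had its 2 lowest arrays in the mock group. The arrays were scaled alike before deposit, so a fold says how a gene stood relative to the bulk of the array, and fewer cells expressing a gene and less RNA per cell cannot be told apart.

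**Figure D1:**
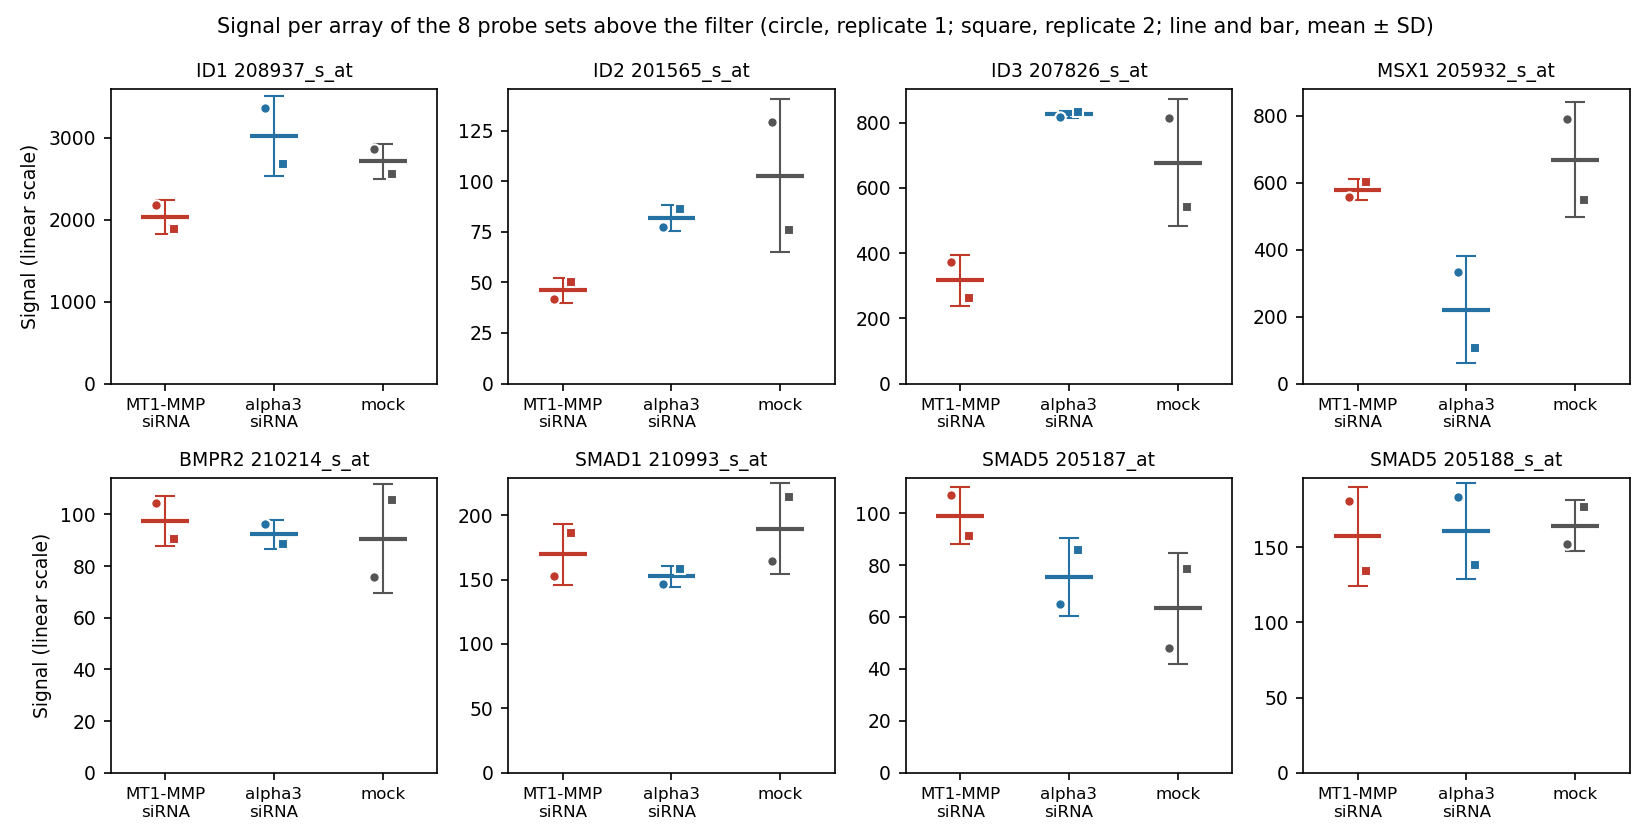
Signal on each array (linear scale, axis from 0) for the 8 probe sets above the filter, with MT1-MMP siRNA, alpha3 siRNA and mock from left to right. Circles are replicate 1, squares replicate 2, lines the mean and bars the SD (n = 2). Both MT1-MMP siRNA arrays lie below the others for ID1, ID2 and ID3, and both alpha3 siRNA arrays lie below the others for MSX1.

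The ligand and receptors came first in the pathway's order. BMP4, a ligand of the BMP2 and BMP4 subfamily, had signals of 8.0 and 6.7 with MT1-MMP siRNA, 10.5 and 4.3 in alpha3 siRNA cells, and 6.2 and 5.3 in mock cells on its probe set 211518_s_at. All 6 values lay under the filter, so BMP4 was not tested. The MT1-MMP siRNA arrays lay above the mock arrays, and the alpha3 siRNA arrays were the highest and the lowest of the 6. BMPR2, the type II receptor that is dedicated to BMP ligands, had signals of 104 and 90.5 with MT1-MMP siRNA, 96.3 and 88.4 in alpha3 siRNA cells, and 75.7 and 106 in mock cells on probe set 210214_s_at. The mock arrays were the lowest and the highest of the 6, so the groups overlapped. The log2 fold change of BMPR2 was 0.09 with MT1-MMP siRNA against mock (95% interval -0.44 to 0.61, limma adjusted p = 0.899). It was 0.03 with alpha3 siRNA against mock (95% interval -0.50 to 0.55, adjusted p = 0.994). The sign of both turned without mock replicate 1, to -0.091 and -0.15. The second BMPR2 probe set, 209920_at, lay under the filter and ranged from 5.6 to 83.6, both ends being mock arrays.

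SMAD1, the receptor-regulated SMAD named first among the genes, had signals of 153 and 186 with MT1-MMP siRNA, 147 and 159 in alpha3 siRNA cells, and 164 and 214 in mock cells on probe set 210993_s_at. The gene lies on chromosome 4, bases 145480770 to 145559176 of GRCh38.p14 in RefSeq. Its order of group means was alpha3 siRNA, MT1-MMP siRNA, mock, from low to high. The MT1-MMP siRNA arrays overlapped both other groups, while the alpha3 siRNA arrays lay below both mock arrays. The mean signal was 170 ± 23.7 with MT1-MMP siRNA, 153 ± 8.2 with alpha3 siRNA and 189 ± 35.4 in mock cells (SD, n = 2 each).

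The log2 fold change of SMAD1 with MT1-MMP siRNA against mock was -0.13 (SE 0.22, 95% interval -0.62 to 0.36, limma adjusted p = 0.826). The interval runs from below the mock level to above it, and leaving out mock replicate 2 turned the sign (0.034). For alpha3 siRNA over mock SMAD1 had a value of -0.25 (SE 0.22, 95% interval -0.74 to 0.24, adjusted p = 0.923), between -0.42 without mock replicate 1 and -0.089 without mock replicate 2. The 2 siRNAs differed by 0.12 (95% interval -0.37 to 0.61, adjusted p = 0.777). The second SMAD1 probe set, 208015_at, had signals of 13.0 and 2.7 with MT1-MMP siRNA, 7.4 and 5.9 in alpha3 siRNA cells, and 4.0 and 4.6 in mock cells, all under the filter. The 3 genes whose log2 values followed SMAD1 most closely over the 6 arrays were ACTR3B (Pearson r = 0.992), CLTC (r = 0.984) and EFR3A (r = 0.982), chosen as the highest among all tested probe sets. The 6 arrays share scaling and groups, and these values are a description.

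SMAD5, the close relative of SMAD1 that the same receptors phosphorylate, was read by a pair of probe sets that did not show the same order. On 205188_s_at it had signals of 180 and 134 with MT1-MMP siRNA, 183 and 138 in alpha3 siRNA cells, and 152 and 176 in mock cells, with all groups overlapping. On 205187_at it had signals of 107 and 91.2 with MT1-MMP siRNA, 64.9 and 85.9 in alpha3 siRNA cells, and 48.2 and 78.5 in mock cells. On this probe set the MT1-MMP siRNA arrays lay above all others, and the alpha3 siRNA and mock arrays overlapped. With MT1-MMP siRNA against mock, the log2 fold change was -0.06 on 205188_s_at (95% interval -0.59 to 0.46, limma adjusted p = 0.929) and 0.47 on 205187_at (95% interval -0.11 to 1.06, adjusted p = 0.439). With alpha3 siRNA against mock, the values were -0.03 (adjusted p = 0.992) and 0.18 (adjusted p = 0.942). Leaving out 1 array moved the first probe set between -0.24 and 0.12 for MT1-MMP siRNA and the second between 0.24 and 0.71.

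SMAD6, the inhibitory SMAD of the BMP branch, had 4 probe sets, and all of them lay under the filter. On 207069_s_at the signals were 9.9 and 5.7 with MT1-MMP siRNA, 25.9 and 2.4 in alpha3 siRNA cells, and 6.7 and 29.0 in mock cells. On 209887_at they were 24 and 48.9 with MT1-MMP siRNA, 28.1 and 21.3 in alpha3 siRNA cells, and 2.0 and 32.1 in mock cells. Arrays of 1 group thus differed by as much as arrays of different groups, and no SMAD6 value was tested. On 209886_s_at the lowest and the highest array were both mock, at 5.4 and 38.7. On 213565_s_at both were alpha3 siRNA arrays, at 3.1 and 27.7. There the MT1-MMP siRNA arrays (23 and 16.4) lay above the mock arrays (8.1 and 11.1), while these groups overlapped on the other SMAD6 probe sets.

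**Figure D2:**
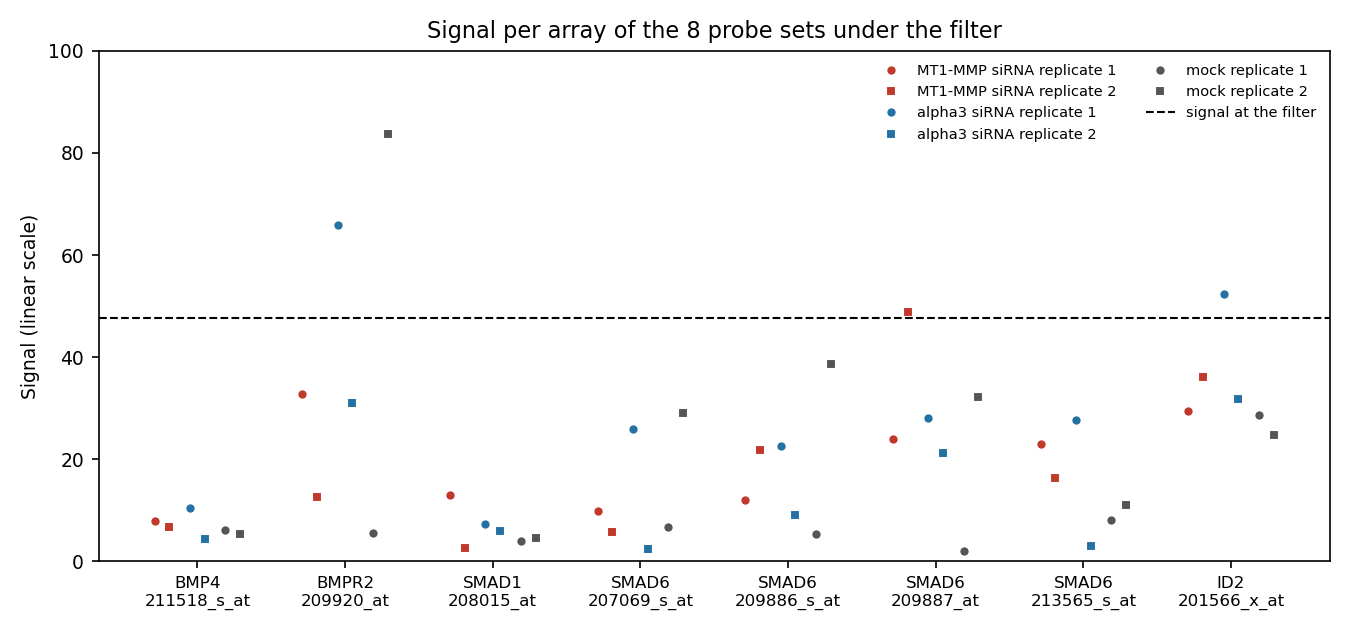
Signal on each array (linear scale) for the 8 probe sets under the filter. Colours mark MT1-MMP siRNA, alpha3 siRNA and mock, circles replicate 1 and squares replicate 2, and the dashed line is a signal of 47.6, the 40th percentile of the mean. Values run from 2.0 to 83.6, and replicates of 1 group are often as far apart as the groups.

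The ID genes are targets among the members, as is MSX1. The 250 bases before the transcription starts of the ID genes are shown, as RefSeq gives them on GRCh38.p14. They were chosen because the tested probe sets of all 3 genes shared their 2 lowest arrays. A second, dimmer ID2 probe set did not. ID1 lies on chromosome 20, ID2 on chromosome 2 and ID3 on chromosome 1. The windows are chr20:31605039-31605288 (plus strand), chr2:8681806-8682055 (plus strand) and chr1:23559502-23559751 (minus strand). Each is printed 5′ to 3′ on the gene's strand. Capitals mark GGCGCC (the GC-rich SMAD box), CAGAC (the SMAD-binding element), TATAAA (the TATA box) and CCAAT (the box read by factor NF-Y) on either strand, and the last was added after the sequences had been seen.
ID1: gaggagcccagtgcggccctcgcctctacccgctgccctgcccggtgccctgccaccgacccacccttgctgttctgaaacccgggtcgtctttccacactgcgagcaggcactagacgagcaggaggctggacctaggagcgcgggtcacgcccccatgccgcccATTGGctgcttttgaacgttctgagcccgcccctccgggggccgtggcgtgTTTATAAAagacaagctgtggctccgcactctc
ID2: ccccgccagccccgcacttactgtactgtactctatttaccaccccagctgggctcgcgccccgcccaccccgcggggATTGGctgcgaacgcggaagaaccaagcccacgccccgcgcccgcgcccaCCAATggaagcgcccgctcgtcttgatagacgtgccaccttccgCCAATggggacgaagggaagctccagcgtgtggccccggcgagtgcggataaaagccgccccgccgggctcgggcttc
ID3: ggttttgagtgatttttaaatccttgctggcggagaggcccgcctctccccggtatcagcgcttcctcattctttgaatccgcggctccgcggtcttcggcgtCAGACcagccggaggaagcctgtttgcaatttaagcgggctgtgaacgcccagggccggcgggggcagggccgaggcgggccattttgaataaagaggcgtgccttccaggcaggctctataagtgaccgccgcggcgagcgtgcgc
The TATAAA letters in ID1 overlap their own reverse complement, at 33 and 31 bases before the start, and no other motif overlapped. ID1 held CCAAT once, at 84 bases before the start, and ID2 held it at 172, 122 and 78 bases. ID3 held CAGAC, at 147 bases. Of 34788 distinct RefSeq windows of the same length, 16.4% held GGCGCC, 38.0% CAGAC, 10.8% TATAAA and 32% CCAAT. None of the 3 ID windows held GGCGCC, and sequence farther than 250 bases before the start, or after it, was not searched.

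ID1 was read by probe set 208937_s_at. It had signals of 2177 and 1888 with MT1-MMP siRNA, 3366 and 2676 in alpha3 siRNA cells, and 2862 and 2555 in mock cells. Both MT1-MMP siRNA arrays lay below all 4 others, and the alpha3 siRNA and mock arrays overlapped. The mean with MT1-MMP siRNA was 0.751 times that of mock cells (2033 ± 204 against 2708 ± 217, SD, n = 2 each), a log2 fold change of -0.41 (SE 0.19, 95% interval -0.83 to 0.01, limma adjusted p = 0.367). With alpha3 siRNA against mock the log2 fold change was 0.15 (95% interval -0.27 to 0.57, adjusted p = 0.934). The 2 siRNAs differed by -0.56 (SE 0.19, 95% interval -0.98 to -0.13, adjusted p = 0.131).

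ID2 was dimmer, with 41.7 and 50.4 in MT1-MMP siRNA cells, 77.3 and 86.3 in alpha3 siRNA cells, and 130 and 76.1 in mock cells on probe set 201565_s_at. Both MT1-MMP siRNA arrays were again the lowest, and mock replicate 1 was the highest. The mean with MT1-MMP siRNA was 0.448 times that of mock cells (46.1 ± 6.15 against 103 ± 37.8, SD, n = 2 each). This MT1-MMP siRNA mean lay under the filter signal of 47.6, so the probe set was tested through its signals in the other groups. The log2 fold change was -0.76 (SE 0.27, 95% interval -1.37 to -0.16, limma adjusted p = 0.268), and it was -0.47 without mock replicate 1. For alpha3 siRNA over mock ID2 had a value of -0.22 (95% interval -0.82 to 0.39, adjusted p = 0.931), and 0.073 without mock replicate 1. The 2 siRNAs differed by -0.55 (95% interval -1.15 to 0.06, adjusted p = 0.264). The second ID2 probe set, 201566_x_at, had signals of 29.5 and 36.2 with MT1-MMP siRNA, 52.3 and 31.8 in alpha3 siRNA cells, and 28.6 and 24.8 in mock cells. On that probe set, which lay under the filter, the MT1-MMP siRNA arrays were above the mock arrays, opposite to the order on 201565_s_at. A further probe set carried ID2 together with another symbol and was not used.

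ID3 was read by probe set 207826_s_at. It had signals of 372 and 262 with MT1-MMP siRNA, 818 and 834 in alpha3 siRNA cells, and 815 and 540 in mock cells. No 2 groups overlapped, with MT1-MMP siRNA lowest and alpha3 siRNA highest, although mock replicate 1 (814.8) came close to the lower alpha3 siRNA array (818). ID3 fell in MT1-MMP siRNA cells against alpha3 siRNA cells, with a mean of 317 ± 77.8 against 826 ± 11.2 (SD, n = 2 each), a ratio of 0.384 and a log2 fold change of -1.32 (SE 0.25, 95% interval -1.89 to -0.74, limma adjusted p = 0.0487). The call lies at the edge of the threshold: the adjusted p ran from 0.0432 to 0.199 over the alternatives. It was lost without either MT1-MMP siRNA array (adjusted p = 0.199 without replicate 1 and 0.126 without replicate 2), without either alpha3 siRNA array (0.0905 without replicate 1 and 0.147 without replicate 2), and under 6 other settings.

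Against mock, ID3 with MT1-MMP siRNA had a ratio of means of 0.468 (317 ± 77.8 against 677 ± 194, SD, n = 2 each). The log2 fold change was -1.01 (SE 0.25, 95% interval -1.59 to -0.44, limma adjusted p = 0.179), between -1.30 without mock replicate 2 and -0.73 without mock replicate 1. For alpha3 siRNA over mock ID3 had a value of 0.30 (95% interval -0.27 to 0.88, adjusted p = 0.923), and 0.019 without mock replicate 2. The hybridisation controls (2.30 and 1.29 with MT1-MMP siRNA) and the summed mesenchymal markers (32265 to 39368) also stood apart in the MT1-MMP siRNA group. The summed epithelial markers, carried by KRT18 and KRT8, stood apart in all 3 groups, in the group order of ID1 and ID3. The sums were 2273 to 2713 with MT1-MMP siRNA, 4182 to 4612 in alpha3 siRNA cells and 3006 to 3200 in mock cells. On KRT8 alone the MT1-MMP siRNA and mock arrays overlapped, and CDH1, under the filter, was highest in mock cells. The part of these measures in the ID values was not tested.

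MSX1, which lies on chromosome 4 at bases 4859665 to 4863936 of GRCh38.p14, had another pattern. On probe set 205932_s_at it had signals of 558 and 601 with MT1-MMP siRNA, 333 and 107 in alpha3 siRNA cells, and 791 and 548 in mock cells. The alpha3 siRNA arrays lay below all others but differed from each other more than the arrays of any other group did in proportion, and the MT1-MMP siRNA arrays lay between the mock arrays. The mean with alpha3 siRNA was 0.329 times that of mock cells (220 ± 160 against 670 ± 172, SD, n = 2 each). The log2 fold change was -1.62 (SE 0.40, 95% interval -2.54 to -0.69, limma unadjusted p = 0.00347, adjusted p = 0.819). It was -2.31 without alpha3 siRNA replicate 1 and -0.92 without alpha3 siRNA replicate 2. With MT1-MMP siRNA against mock MSX1 had a log2 fold change of -0.18 (95% interval -1.10 to 0.74, adjusted p = 0.879). The 2 siRNAs differed by 1.44 (SE 0.40, 95% interval 0.52 to 2.36, adjusted p = 0.0954), which did not pass. The value rested on single alpha3 siRNA arrays: it was 2.14 (adjusted p = 0.0481) without replicate 1 and 0.74 (adjusted p = 0.231) without replicate 2, where the lone array was assumed to vary like the other groups.

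**Figure D3:**
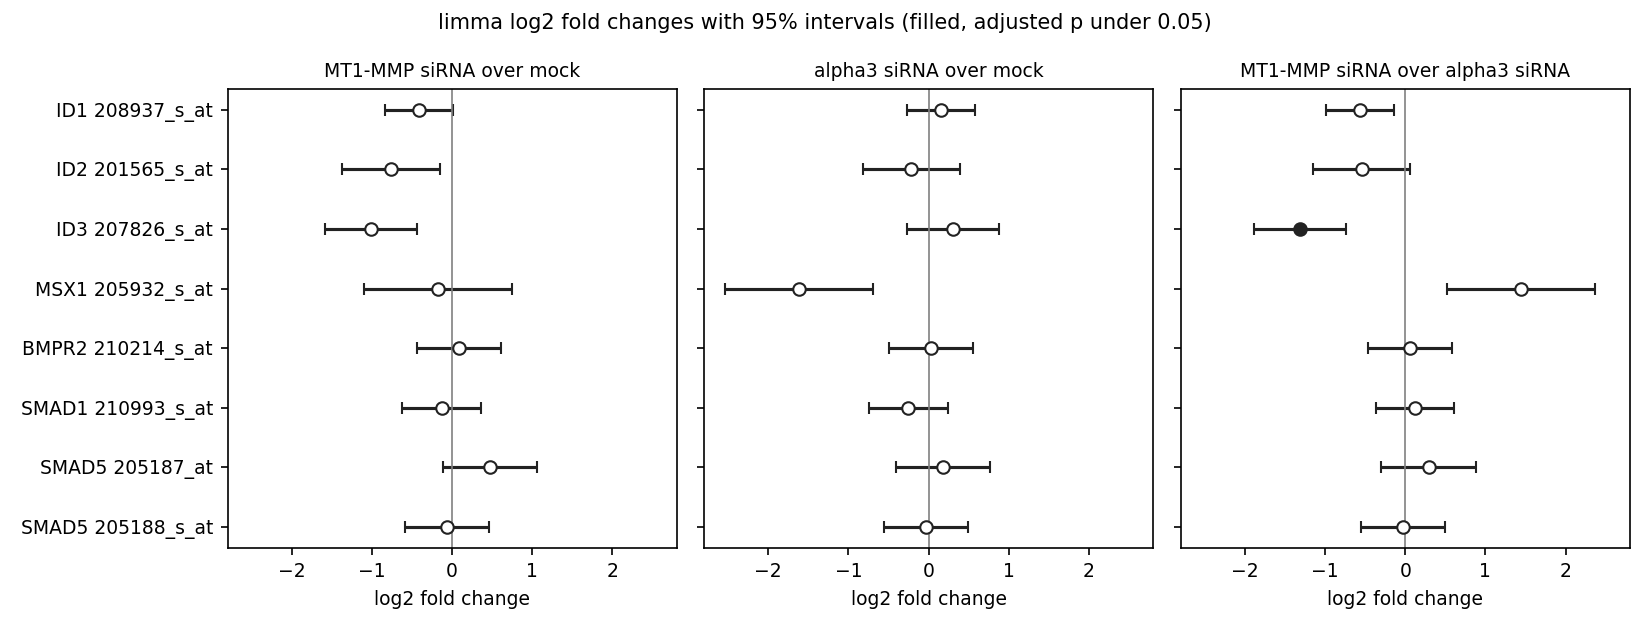
limma log2 fold changes (points) with 95% intervals (bars) of the 8 tested probe sets, for MT1-MMP siRNA over mock, alpha3 siRNA over mock, and MT1-MMP siRNA over alpha3 siRNA. The filled point, ID3 between the siRNAs at -1.32, is the one with an adjusted p under 0.05. The MSX1 interval lies below 0 for alpha3 siRNA over mock, and the SMAD1 interval holds 0 in all 3 panels.

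The counts of members were read against the whole array. With MT1-MMP siRNA against mock, 0 of the 8 probe sets were called by limma, where 0.0169% of all tested probe sets were. At an unadjusted p under 0.05, 2 of the 8 were lower (ID2 and ID3) and 0 higher, where 7.19% and 6.88% of all were. The arrays of these groups did not overlap on the lower side for 3 of the 8, the ID genes, where 24.8% of all did so, and on the higher side for 1 of the 8 (SMAD5 on 205187_at), where 24.3% did. With alpha3 siRNA against mock, 0 of the 8 were called, against 0.00846% of all, and at an unadjusted p under 0.05 1 was lower (MSX1) and 0 higher, where 3% and 2.36% of all were. On that comparison the arrays did not overlap on the lower side for 2 (SMAD1 and MSX1), against 17.7% of all, and on the higher side for 1 (ID3), against 16.7%. Between MT1-MMP siRNA and alpha3 siRNA, 1 of the 8 was called (ID3), where 1.37% of all were. At an unadjusted p under 0.05, 2 of the 8 were lower there (ID1 and ID3) and 1 higher (MSX1), where 11% and 11.6% of all were. The arrays of the 2 siRNAs did not overlap on the lower side for 3 (the ID genes), against 25.6% of all, and on the higher side for 2 (MSX1 and SMAD5 on 205187_at), against 27.5%. Arrays that do not overlap were thus common among all probe sets. ID2 on 201565_s_at, among the lower counts for MT1-MMP siRNA, passed the filter through its alpha3 siRNA and mock signals. Its place in these counts thus leans on the filter. On its untested probe set 201566_x_at the MT1-MMP siRNA arrays lay above the mock arrays. Apart from ID2, ID3 alone was lower with MT1-MMP siRNA against mock at that unadjusted p. The median log2 fold change of the 8 was -0.15 for MT1-MMP siRNA over mock and -0.0026 for alpha3 siRNA over mock, beside 0.0040 and -0.011 for all tested probe sets. Both of these comparisons use the same mock arrays.

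The rest of the pathway was described from 7 lists by role, holding 76 other genes. Of these, 66 had a probe set with that single symbol and 46 had one above the filter, and a gene was read by its brightest probe set. No gene of these lists was called in any of the 3 comparisons by limma. Of all tested probe sets, 0.0169% were called with MT1-MMP siRNA against mock, 0.00846% with alpha3 siRNA against mock and 1.37% between the siRNAs. At such shares a count of 0 among 46 genes says little about the pathway. At an unadjusted p under 0.05 there were 2 higher and 0 lower of the 46 with MT1-MMP siRNA against mock, where 6.88% and 7.19% of all tested probe sets were. There were 0 either way with alpha3 siRNA against mock, where 2.36% and 3% were. Between MT1-MMP siRNA and alpha3 siRNA there were 6 higher and 1 lower, where 11.6% and 11% were. With MT1-MMP siRNA against mock the median over the 46 genes was 0.17, and 33 of them lay above 0, where 50.4% of all tested probe sets did. With alpha3 siRNA against mock the median was -0.06, with 21 above 0, where 48.4% of all were.

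Among ligands, BMP10 had the largest difference with MT1-MMP siRNA against mock (54.5 and 67.7 against 81.4 and 92.1, log2 fold change -0.35, limma adjusted p = 0.545), and GDF7 with alpha3 siRNA against mock (29.5 and 48.3 against 56.4 and 84.5, -0.53, adjusted p = 0.892). With alpha3 siRNA the GDF7 mean of 38.9 lay under the filter signal of 47.6. GDF7 was thus tested through its signals in the other groups. The 8 tested ligands had a median of -0.10 for MT1-MMP siRNA and -0.16 for alpha3 siRNA. Among the 5 tested receptors and coreceptors, the activin type II receptor ACVR2A had the largest difference with both siRNAs, with 219 and 260 in MT1-MMP siRNA cells, 281 and 136 in alpha3 siRNA cells, and 154 and 153 in mock cells. Its log2 fold changes were 0.55 (adjusted p = 0.431) and 0.31 (adjusted p = 0.923).

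SMAD7, the inhibitory SMAD shared with the TGF-beta branch and itself induced by SMAD signalling, had 84.3 and 122 in MT1-MMP siRNA cells, 206 and 180 in alpha3 siRNA cells, and 106 and 141 in mock cells. Its group means stood in the same order as those of ID1 and ID3, with MT1-MMP siRNA lowest and alpha3 siRNA highest. The MT1-MMP siRNA and mock arrays of SMAD7 overlapped, and ID2 on 201565_s_at had another order, with mock highest. A link between SMAD7 and the ID genes was not tested. The log2 fold change was -0.21 with MT1-MMP siRNA against mock (limma adjusted p = 0.729), 0.54 with alpha3 siRNA against mock (adjusted p = 0.892) and -0.75 between MT1-MMP siRNA and alpha3 siRNA (adjusted p = 0.119). Among extracellular modulators, TWSG1, a BMP-binding protein, had 219 and 181 with MT1-MMP siRNA against 90.3 and 147 in mock cells (0.64, adjusted p = 0.297). FST, the activin- and BMP-binding follistatin, had 732 and 379 with alpha3 siRNA against 423 and 268 in mock cells (0.60, adjusted p = 0.892). The 7 tested modulators had a median of 0.36 for MT1-MMP siRNA and 0.28 for alpha3 siRNA.

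Inside the cell, the ubiquitin ligase SMURF1, which targets SMAD1 and SMAD5, had 237 and 255 with MT1-MMP siRNA against 172 and 193 in mock cells (log2 fold change 0.37, limma adjusted p = 0.468). LEMD3, a nuclear membrane protein that binds receptor-regulated SMADs, had 157 and 128 with alpha3 siRNA against 185 and 276 in mock cells (-0.58, adjusted p = 0.892). Of the other target genes, 7 were tested. For MT1-MMP siRNA over mock 6 of these 7 lay above 0, with a median of 0.36, where 50.4% of all tested probe sets lay above 0. At an unadjusted limma p under 0.05, 0 of the 7 were higher and 0 lower, where 6.88% and 7.19% of all were. The tested probe sets of the 3 ID genes and of MSX1 lay below 0. TBX3, a T-box transcription factor, had 215 and 226 with MT1-MMP siRNA against 131 and 155 in mock cells (0.53, adjusted p = 0.356). DLX2, a homeobox factor, had 17.6 and 89.4 with alpha3 siRNA against 95.8 and 68.3 in mock cells (-0.55, adjusted p = 0.915). The lower of these alpha3 siRNA arrays lay under the filter signal of 47.6, so DLX2 leaned on its other signals to pass the filter.

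The transcription factors that ID proteins bind were the last group, with 4 tested genes and a median of 0.17 for MT1-MMP siRNA and -0.17 for alpha3 siRNA against mock. TWIST1, a basic helix-loop-helix factor of mesenchymal cells, had 185 and 148 with MT1-MMP siRNA against 93.0 and 86.8 in mock cells, with no overlap (log2 fold change 0.69, limma unadjusted p = 0.0187, adjusted p = 0.264). TCF4, an E protein, had 118 and 101 with alpha3 siRNA against 130 and 185 in mock cells (-0.40, adjusted p = 0.893).

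**Figure D4:**
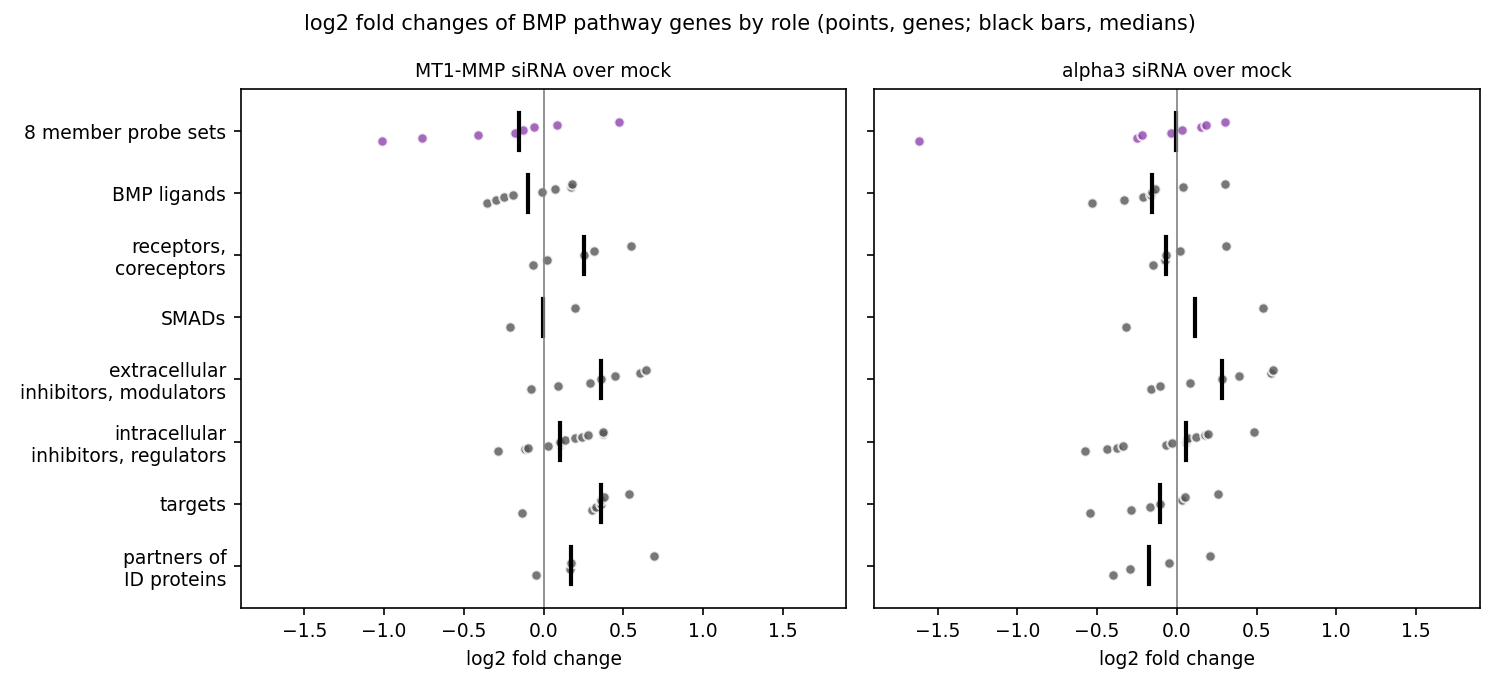
log2 fold changes of the 8 member probe sets and of 46 other BMP pathway genes by role (points), with list medians (black bars), for MT1-MMP siRNA over mock and alpha3 siRNA over mock. With MT1-MMP siRNA, ID3 and ID2 are the lowest points at -1.01 and -0.76, and with alpha3 siRNA MSX1 is the lowest at -1.62.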

How the data were processed

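Total RNA of HT1080 cells was measured on 6 single-channel oligonucleotide arrays. The authors deposited 1 linear intensity for each probe set. Every array had a mean of 250.1 over the middle 96% of its values, so the deposited intensities were scaled alike. How they were summarised is not given in the sources used here, and no detection calls were used. Names came from the platform annotation, in which 19065 probe sets had 1 symbol, 1043 several and 2107 none, with 68 controls. Those without exactly 1 symbol stayed out.

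Any value under 1 became 1, and tests used log2(value + 32) with no further normalization. The filter kept those whose mean exceeded the 40th percentile. limma 3.58.1 in R 4.3.3 fitted 3 group means to all 6 arrays, with an intensity trend in eBayes (3 residual and 5.51 prior degrees of freedom), and Benjamini-Hochberg adjustment ran over 11823 probe sets. Replicate pairs shared at most 78 identical values, so each array counted as 1 replicate. The fit was tested on simulated data. Each SD covers 2 arrays, and each SE belongs to a log2 fold change. Promoter windows came from RefSeq (GRCh38.p14), which held all 10 genes. Figures were drawn with matplotlib 3.10.9.

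The members and lists were chosen with earlier results of these data known. By rule the text names every member probe set, any called gene of the lists, the gene of each list with the largest log2 fold change in size for each siRNA against mock, the siRNA targets, and the 3 genes most correlated with SMAD1. The alternatives were quantile, 75th percentile and cyclic loess scaling, offsets of 1 and 100, no filter and a 60th percentile filter, the brightest or the mean probe set of a gene, no trend, only the groups compared, a replicate block, and leaving out each array.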

Additional observations from a re-analysis of the deposited data

How the results depend on the processing

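With 2 arrays a group, counts of calls depend on few arrays. For MT1-MMP siRNA against mock, 2 probe sets of all tested were called. The count was 10 with a common 75th percentile (7 higher and 3 lower, against 2 higher and 0 lower), 1 with cyclic loess or without the trend, 4 and 14 with offsets of 1 and 100, 0 without a filter, with the 60th percentile filter or with the brightest probe set of a gene, 12 with only these groups, and 0 to 13 without 1 array. For alpha3 siRNA against mock 1 was called: 0 with an offset of 1 or the 60th percentile filter, 2 with the brightest or the mean probe set, and 0 to 9 without 1 array. Between MT1-MMP siRNA and alpha3 siRNA 162 were called: 99 with an offset of 1, 1 without a filter, 93 with the mean probe set, 84 without the trend, and 0 to 152 without 1 array (0 without either MT1-MMP siRNA array, 23 and 4 without alpha3 siRNA replicates 1 and 2).

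Of the members, ID3 between MT1-MMP siRNA and alpha3 siRNA was the 1 call. The count was 0 with quantile or cyclic loess normalization, an offset of 1, no filter, the mean probe set or no trend. The ID3 call was also lost on leaving out any 1 MT1-MMP siRNA or alpha3 siRNA array. The ID3 log2 fold change stayed between -1.55 and -1.09, and the cause of the lost calls was not tested.

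Signs turned for values near 0. With the mean of its probe sets SMAD5 stood at 0.21 for MT1-MMP siRNA and 0.074 for alpha3 siRNA against mock, and at 0.13 between them. That mean includes 205187_at. BMPR2 between MT1-MMP siRNA and alpha3 siRNA stood at -0.011 with quantile and -0.013 with cyclic loess normalization. Without 1 array, MT1-MMP siRNA against mock ran from -0.24 to 0.12 for SMAD5 on 205188_s_at, -0.43 to 0.076 for MSX1, -0.091 to 0.26 for BMPR2 and -0.29 to 0.034 for SMAD1. For alpha3 siRNA against mock the ranges were -0.51 to 0.073 for ID2, -0.048 to 0.41 and -0.20 to 0.13 for SMAD5 on 205187_at and 205188_s_at, -0.015 to 0.31 for ID1 and -0.15 to 0.21 for BMPR2. Between MT1-MMP siRNA and alpha3 siRNA they were -0.21 to 0.15 for SMAD5 on 205188_s_at and -0.021 to 0.13 for BMPR2. The causes were not tested. The other member values kept their direction under every alternative run.

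The array numbers in the titles are not said to pair arrays. The differences of replicate 1 less replicate 2 correlated between groups at -0.19 (MT1-MMP siRNA and mock), -0.17 (alpha3 siRNA and mock) and 0.13 (MT1-MMP siRNA and alpha3 siRNA). In the pairs with mock, same-numbered arrays thus leaned in opposite directions. With the replicate block, 6 probe sets were called for MT1-MMP siRNA against mock, 1 for alpha3 siRNA against mock and 114 between the siRNAs. The 1 member call was kept. With the mock numbers crossed, an alternative chosen after seeing the data, the counts were 99, 5 and 832. Dim probe sets limit the reading of BMP4 and SMAD6, since no detection calls were used here.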
